A study of Mus musculus with 3 samples.

Results

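The mouse chemokine genes Ccl3, Ccl4, Ccl6 and Ccl9 lie next to one another on chromosome 11 (mm9), and the RNA Pol_II found on them and between them is described here. The 4 members were chosen by name and position, out of 22350 protein-coding genes of chromosomes 1 to 19 and X in the annotation used (GENCODE M1). Pol_II phosphorylated at Ser5 of the repeats in its carboxy-terminal domain was mapped by ChIP-Seq, in which DNA bound by an antibody is sequenced, in macrophages grown for 7 days from bone marrow of female Fvb mice (Fvb/Hsd in the study's methods). There were 3 libraries, 1 from untreated cells, 1 from cells given lipopolysaccharide (LPS, 10 ng/ml) for 2 h, and 1 of input DNA, that is chromatin sequenced without antibody, from untreated cells. All 3 came from cells grown in medium that L929 cells had conditioned, with no genetic change named, and the labels give neither the number of mice nor any pooling. For the stimulated library the labels, and the study's text where it describes its Ser5 libraries, name LPS alone. The study's own drawing of these data names LPS with gamma interferon. Each condition had 1 library, so no test was made, no difference has a replicate check, and every interval below is a 95% interval for counting error only.

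Chemokines are small secreted proteins that draw leukocytes along a gradient by binding receptors on their surface. Ccl3 and Ccl4 are macrophage inflammatory proteins, and Ccl3 binds the receptor Ccr1. Ccl6 and Ccl9 are rodent chemokines known from myeloid cells that bind Ccr1. Pol_II is phosphorylated at Ser5 as it begins transcription, so that tags of this antibody usually gather near the start of a gene and thin out along it.

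The files held 7616771 tags of untreated Ser5, 6249819 of Ser5 after LPS and 7533308 of input on chromosomes 1 to 19 and X, in tags of 45, 30 and 36 bases. Counting used the 5′ end of each tag, and densities are in RPKM, here the tags per kb of a region for every 1000000 tags of the library. Ratios to input depend on this scaling, since 50.2% of untreated, 46.7% of LPS and 95.5% of input tags lay outside the authors' Ser5 peaks, and scaled to those tags alone they are higher. Between 81.4% and 84.5% of the tags of a library were at distinct positions and strands. All 8 macrophage markers examined, among them Csf1r, Lyz2 and Cd14, had a Ser5 peak of the authors at their transcription start site (TSS) in both conditions. Such a peak was found for 1 of 6 neutrophil markers in either condition (S100a8 before and Camp after LPS), and for 0 of 3 T cell, 0 of 3 B cell, 0 of 3 erythroid and 0 of 4 fibroblast markers. Neutrophil markers had between 0.0425 and 2.18 RPKM over the gene in untreated cells and between 0.103 and 2.23 after LPS. A gene without a peak at its TSS could still have more Ser5 than Ccl6, the lowest member (2.12 RPKM in untreated cells), since the T cell marker Cd3d was at 3.39 RPKM, 3.84 times input (2.63 to 5.74), and the erythroid marker Klf1 at 2.85 RPKM, 2.89 times input (1.81 to 4.75). In a bulk library, more Pol_II on a gene in each cell and more cells with Pol_II on it cannot be told apart.

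Ccl9 (83386421 to 83392138) and Ccl6 (83401384 to 83406589) form the left pair, and Ccl3 (83461346 to 83462857) and Ccl4 (83476086 to 83478185) the right pair. Ccl9, Ccl6 and Ccl3 are on the minus strand and Ccl4 is on the plus strand, so that Ccl3 and Ccl4 diverge from starts 13.2 kb apart. Ccl3 and Ccl4 have 3 exons each and Ccl6 and Ccl9 have 4. The whole run is 91.8 kb long, and 54.8 kb of it separate the Ccl6 TSS from the 3′ end of Ccl3. A long noncoding RNA gene, E230016K23Rik, begins between Ccl9 and Ccl6 and runs on the plus strand over Ccl6 and far into that space, and a ribosomal protein pseudogene, Rpl9-ps1, lies beyond the end of Ccl3. The nearest protein-coding genes outside the run are Ccl5, whose TSS is 42.4 kb from the end of Ccl9, and Gm11428, 39.3 kb past the end of Ccl4.

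The bases before the TSS are shown for the members found in the RefSeq promoter table (3 of 4, Ccl4 being without an entry), since Pol_II was densest just after these starts. Each stretch of 250 bases ends at the base before the RefSeq TSS, is written 5′ to 3′ on the minus strand, and comes from GRCm38.p6. It was found once, without a mismatch, on mm9 chromosome 11. In mm9 it lies at chr11:83462881-83463130 for Ccl3, chr11:83406590-83406839 for Ccl6 and chr11:83392139-83392388 for Ccl9. Capitals mark every match to the motifs searched.
Ccl3: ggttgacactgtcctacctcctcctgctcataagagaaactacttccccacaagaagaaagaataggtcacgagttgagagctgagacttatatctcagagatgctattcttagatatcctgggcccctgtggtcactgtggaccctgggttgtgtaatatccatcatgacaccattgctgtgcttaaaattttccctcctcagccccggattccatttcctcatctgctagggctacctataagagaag
Ccl6: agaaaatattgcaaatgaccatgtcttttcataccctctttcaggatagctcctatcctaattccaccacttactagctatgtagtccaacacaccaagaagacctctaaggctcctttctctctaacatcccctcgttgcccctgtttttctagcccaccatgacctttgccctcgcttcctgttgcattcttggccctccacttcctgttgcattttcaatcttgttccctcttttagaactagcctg
Ccl9: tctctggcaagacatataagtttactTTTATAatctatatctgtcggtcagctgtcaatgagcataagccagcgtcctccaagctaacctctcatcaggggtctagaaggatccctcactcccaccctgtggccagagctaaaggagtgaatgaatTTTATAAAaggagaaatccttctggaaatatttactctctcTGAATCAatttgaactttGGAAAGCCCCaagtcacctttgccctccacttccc

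The RefSeq TSS of Ccl3 is 23 bp upstream of the GENCODE one used for counting, and those of Ccl6 and Ccl9 coincide with it. The motifs were searched on both strands of windows from 250 bases before to 50 after the TSS. They were the kappaB site of NF-kB (consensus, by name), AP-1 (TGANTCA), C/EBP (TTGCNNAA), PU.1 (GAGGAAGT), the interferon-stimulated response element (a repeated GAAA with a gap of 2 bases) and the TATA box (TATAAA). In the Ccl9 window a kappaB match lay at -35 to -26, an AP-1 match at -53 to -47, and TATA box letters at -224 to -219 and, on both strands with an overlap, at -94 to -87. The Ccl3 and Ccl6 windows held 0 matches to these letters. Of 32841 promoters of the same length, 8.46% held the kappaB, 7.81% the AP-1, 10.8% the C/EBP, 3.20% the PU.1, 3.44% the interferon response and 13.6% the TATA letters. The Ccl6 and Ccl9 windows were the most alike, with 182 of 238 aligned bases the same (76.5%), against 59.9% for Ccl3 with Ccl9 and 61.3% for Ccl3 with Ccl6.

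**Figure D1:**
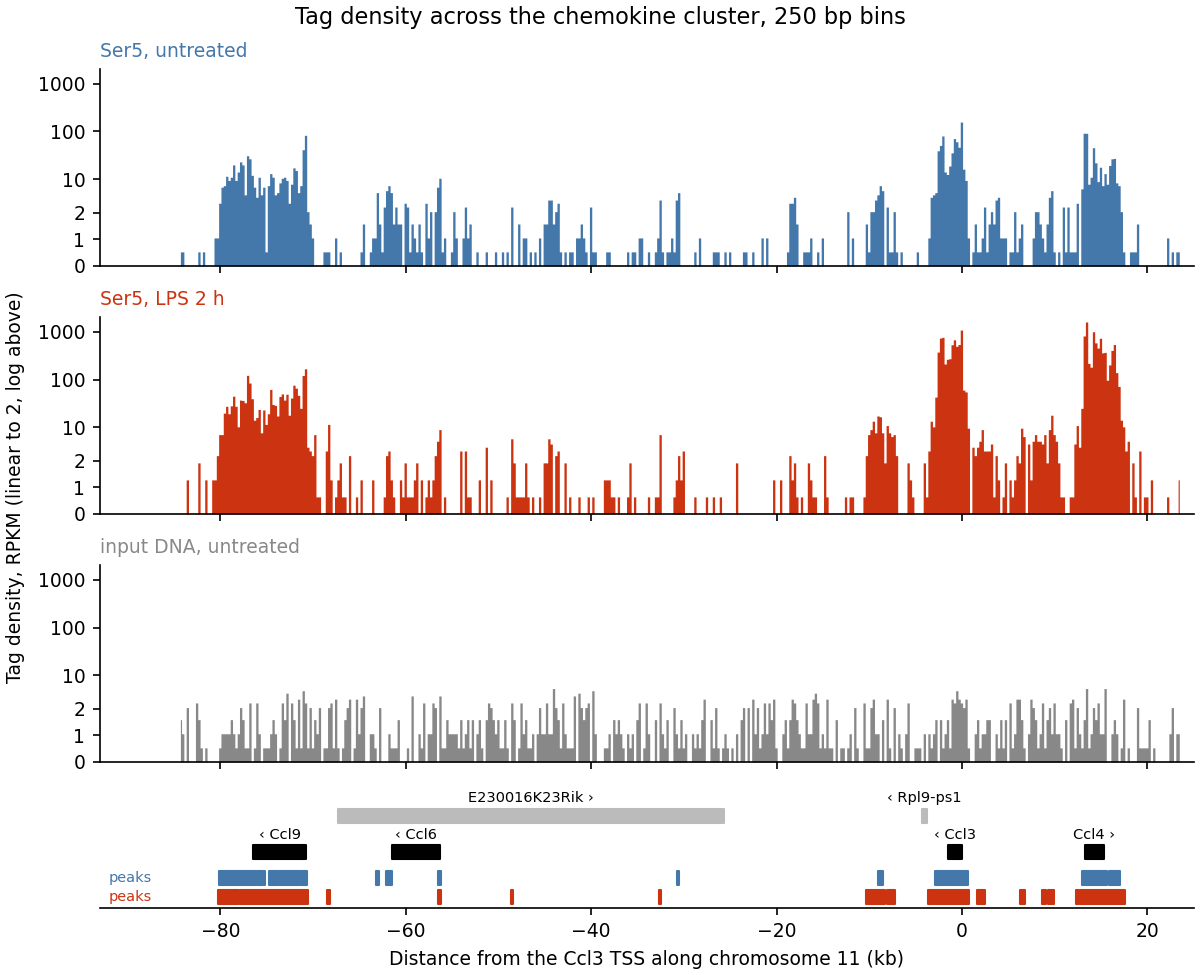
Tag density (RPKM, linear up to 2 and logarithmic above) in bins of 250 bp against the distance from the Ccl3 TSS in kb, for untreated Ser5 (blue), Ser5 after LPS (red) and input (grey). Below are the genes, with the direction of transcription, and the authors' Ser5 peaks of each library. Ccl9, Ccl3 and Ccl4 carry Ser5 blocks, the Ccl6 body is at 2.12 RPKM before and 1.38 after LPS against 0.994 in input, and the blocks at Ccl3 and Ccl4 end within 4 kb of the genes.

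Before stimulation Pol_II was already present on Ccl3, Ccl4 and Ccl9, and to a much smaller extent on Ccl6. The gene body of Ccl3 held 699 untreated Ser5 tags and 34 input tags, that of Ccl4 506 and 33, that of Ccl9 563 and 63, and that of Ccl6 84 and 39. Per length this was 60.7 RPKM for Ccl3 (exact Poisson interval 56.3 to 65.4), 31.6 for Ccl4 (28.9 to 34.5), 12.9 for Ccl9 (11.9 to 14.0) and 2.12 for Ccl6 (1.69 to 2.62). The order of the 4 levels was separated at each step, since no neighbouring intervals overlapped. Relative to input the untreated density was 20.3 times higher for Ccl3 (interval of the ratio 14.4 to 29.6), 15.2 for Ccl4 (10.7 to 22.3), 8.84 for Ccl9 (6.80 to 11.7) and 2.13 for Ccl6 (1.44 to 3.20). All 4 members were thus at least 2 times above input in untreated cells, a mark passed by 37.6% of the 18412 protein-coding genes with at least 10 tags over these libraries. For Ccl6 this depended on the counting, since it was at 1.98 with tags moved 75 bp towards the middle of their fragments, at 1.54 (0.984 to 2.45) without the first 300 bp, and at 4.05 (2.74 to 6.08) when scaled to tags outside the peaks. By the last scaling 54.9% of the 18412 genes passed the mark. Among 22350 protein-coding genes, the untreated density of Ccl3 was 44th from the highest, that of Ccl4 130th, that of Ccl9 504th and that of Ccl6 4556th. An untreated Ser5 peak lay within 1 kb of the TSS of each member, as it did for 48.0% of all protein-coding genes.

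After LPS the members went different ways. Ccl4 rose from 506 to 8941 tags, or from 31.6 to 681 RPKM (667 to 696), a ratio of 21.5 (19.7 to 23.6). Ccl3 rose from 699 to 5547 tags, or from 60.7 to 587 (572 to 603), a ratio of 9.67 (8.94 to 10.5). Ccl9 rose from 563 to 1553 tags, or from 12.9 to 43.5 (41.3 to 45.7), a ratio of 3.36 (3.05 to 3.71). Ccl6 had 84 tags before and 45 after, or 2.12 and 1.38 (1.01 to 1.85), a ratio of 0.653 (0.444 to 0.949). No 2 of these 4 ratios had overlapping intervals.

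With a change of 2 times or more taken as the mark, for genes having 10 or more Ser5 tags in all, 3 of the 4 members were higher after LPS, and Ccl6 was neither higher nor lower. With the 2 kb past its end included, Ccl6 was at 0.496 (0.358 to 0.680) and thus passed the mark downwards. Over all 17386 protein-coding genes that could be judged, 5.83% were higher and 11.3% lower by the same rule, and the median ratio was 0.874. From the highest ratio downwards Ccl4 was 25th, Ccl3 47th, Ccl9 326th and Ccl6 13243th. With density in place of ratio, Ccl4 was 2nd and Ccl3 4th of 22350 genes after LPS, while Ccl9 was 92nd and Ccl6 5769th.

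**Figure D2:**
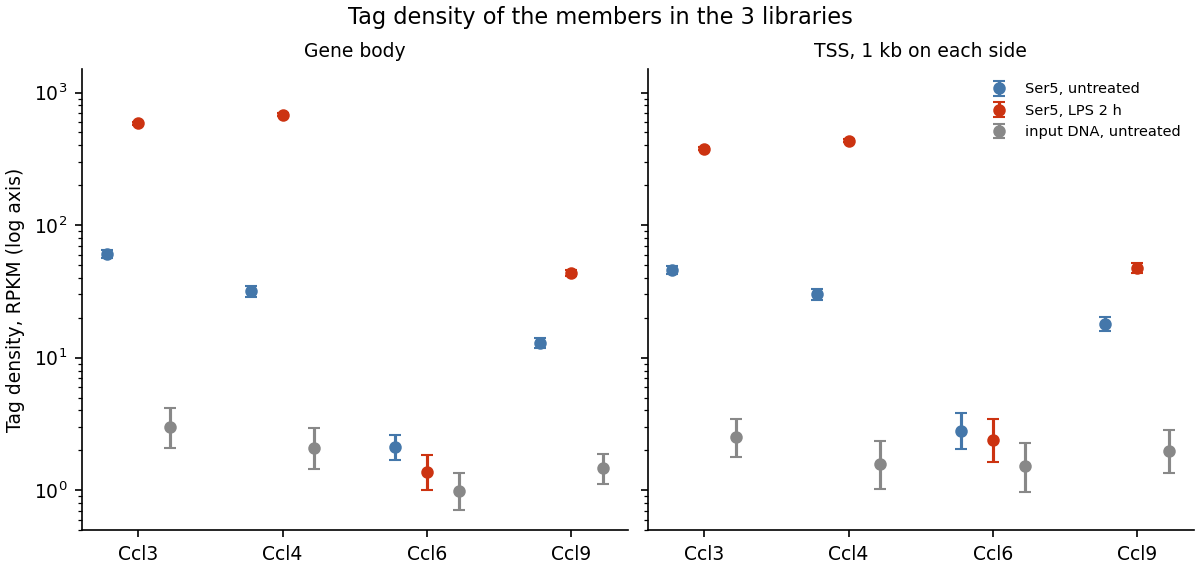
Tag density (RPKM, logarithmic axis) of each member in the 3 libraries, over the gene body (left) and within 1 kb of the TSS (right); bars are exact Poisson 95% intervals for counting error. After LPS the body density of Ccl3 is 587, of Ccl4 681, of Ccl9 43.5 and of Ccl6 1.38, and the Ser5 points of Ccl6 lie nearest to their input.

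The order of Ccl3 and Ccl4 changed with stimulation. Ccl3 had the higher density over the gene in untreated cells (60.7 against 31.6), and Ccl4 after LPS (681 against 587), with intervals apart in both cases. The second order rested on identical tags. After LPS the 5547 tags of the Ccl3 body occupied 2003 distinct positions and strands out of 3024 possible, and the 8941 of Ccl4 occupied 2677 out of 4200. Counted once, such tags gave 260 RPKM for Ccl3 (249 to 272) and 251 for Ccl4 (241 to 260), intervals that overlap. The LPS to untreated ratio then fell to 8.99 for Ccl4 (8.07 to 10.0) and 5.04 for Ccl3 (4.57 to 5.57), still apart. Since both genes had filled most of the positions that a distinct tag can take, the count of distinct tags is limited by that number, and the share of amplified copies among the identical tags was not tested.

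Within 1 kb of the TSS the same order was seen at a smaller size. Ccl3 had 701 tags before and 4728 after LPS (38 in input), a ratio of 8.22 (7.59 to 8.91). Ccl4 had 459 and 5405 (24 in input), a ratio of 14.4 (13.0 to 15.8), and Ccl9 had 273 and 596 (30 in input), a ratio of 2.66 (2.30 to 3.08). Ccl6 had 43 and 30 tags (23 in input), and its ratio of 0.850 (0.515 to 1.39) could not be told from 1 at this depth. With identical tags counted once the ratio was 5.29 at Ccl4 (4.69 to 5.99) and 4.39 at Ccl3 (3.97 to 4.86), so that these intervals overlapped and the order of these 2 genes was no longer separated. Of the 12535 protein-coding genes with at least 10 tags in this window, 5.58% passed the mark upwards after LPS and 14.1% downwards, with a median ratio of 0.831. Each member still had a Ser5 peak there after LPS, against 45.9% of protein-coding genes.

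**Figure D3:**
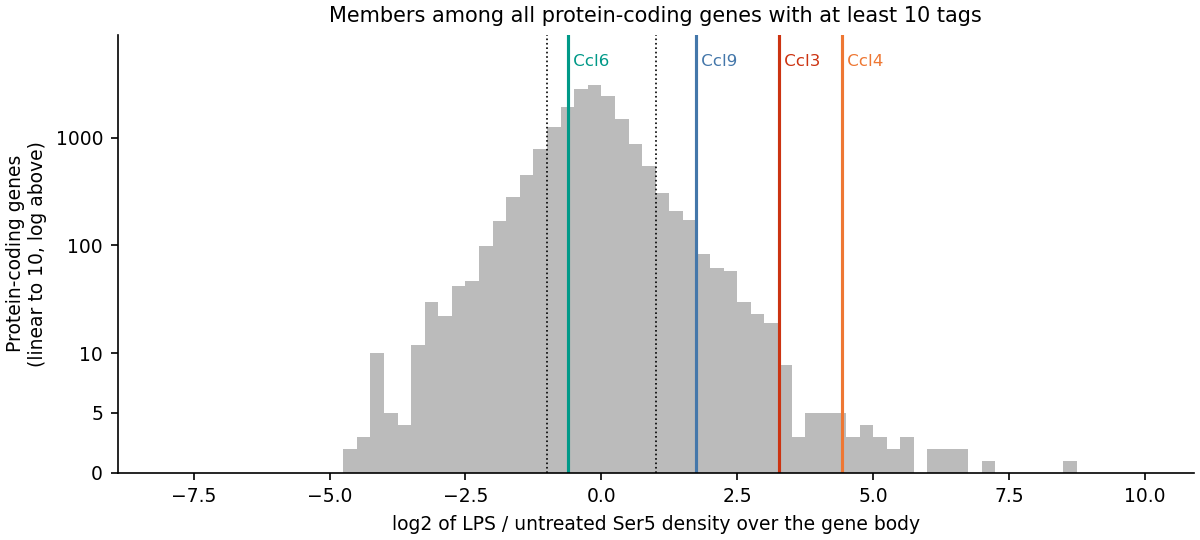
Number of protein-coding genes (linear up to 10, logarithmic above) by the log2 ratio of LPS to untreated Ser5 density over the gene body, for the 17386 genes that had 10 or more Ser5 tags in all; dotted lines mark 2 times lower and higher. Ccl9, Ccl3 and Ccl4 lie in the upper tail and Ccl6 lies below the median of 0.874, inside the dotted lines.

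Along the gene, the rise after LPS was larger in the body than at the start for the 3 induced members. At Ccl4 the window of 300 bp on each side of the TSS went from 358 to 3691 tags, a ratio of 12.6 (11.3 to 14.0), and the rest of the body from 232 to 5648, a ratio of 29.7 (26.0 to 34.0). At Ccl3 the start went from 381 to 2232 (7.14, 6.40 to 7.98) and the rest from 393 to 3580 (11.1, 10.0 to 12.4). At Ccl9 the start went from 211 to 372 (2.15, 1.81 to 2.56) and the rest from 356 to 1190 (4.07, 3.62 to 4.60). None of these pairs of intervals overlapped. At Ccl6 they did, with a ratio of 0.812 (0.451 to 1.44) at the start and 0.621 (0.375 to 1.00) in the rest.

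The density at the start divided by that in the rest of the body fell from 4.62 (3.90 to 5.47) to 1.96 (1.88 to 2.04) at Ccl4. It fell from 5.34 (4.48 to 6.35) to 2.82 (2.50 to 3.17) at Ccl9 and from 1.95 (1.69 to 2.25) to 1.26 (1.19 to 1.32) at Ccl3. For Ccl6 it was 5.08 (3.19 to 8.00) before and 6.65 (3.61 to 12.1) after, from 33 and 22 tags at the start. With identical tags counted once the values before and after were 3.84 and 1.04 at Ccl4, 4.08 and 2.33 at Ccl9, and 1.59 and 0.818 at Ccl3. After LPS 19.7% of the start tags were distinct at Ccl4 and 27.5% at Ccl3, against 29.9% and 36.1% over the whole bodies. Counting once thus removed a larger share at the start, and these values after LPS carry the limit on distinct positions given above. A lower value after LPS was common among genes that gained Ser5. Over 9450 protein-coding genes of at least 1 kb with at least 10 tags in each window of both libraries it was lower after LPS in 56.5%, with medians of 21.6 and 19.8. Of the 459 among them that were at least 2 times higher after LPS over start and body together, it was lower in 87.1%, with medians of 12.4 and 7.42.

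**Figure D4:**
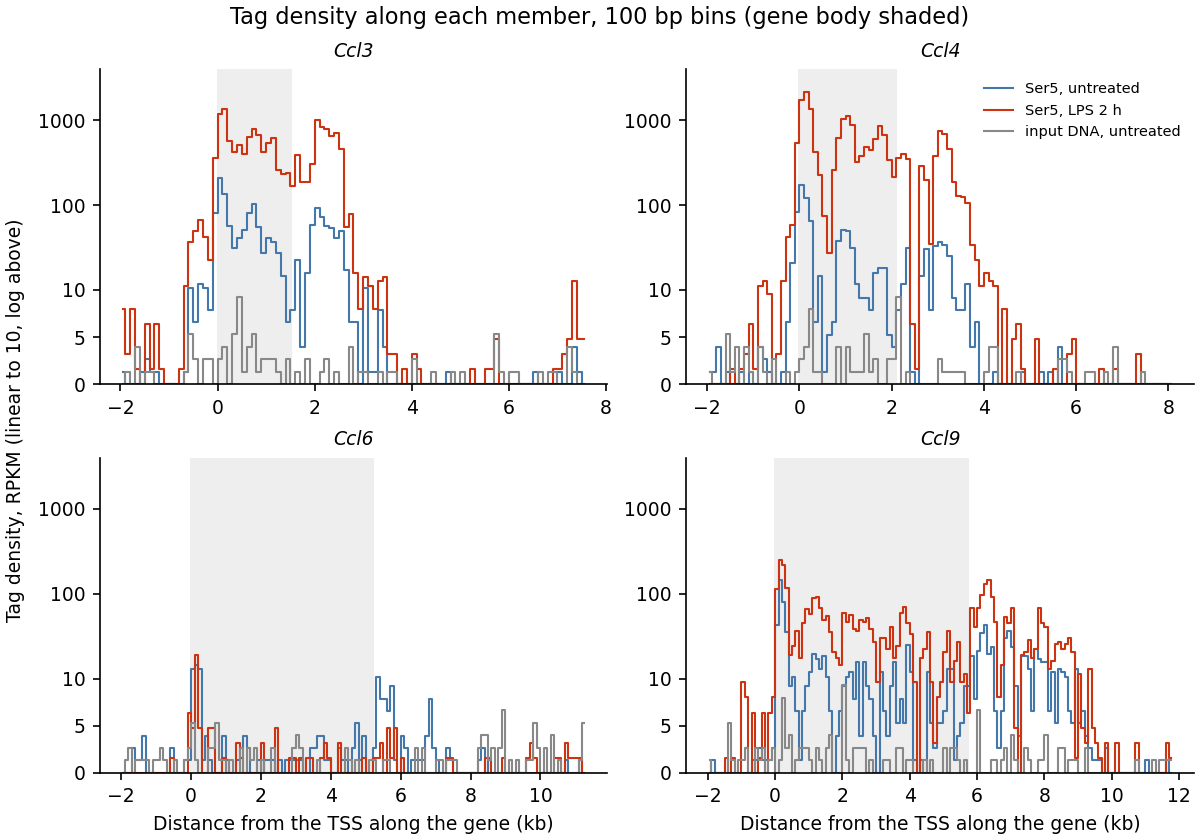
Tag density (RPKM, linear up to 10 and logarithmic above) in bins of 100 bp along each member, against the distance from the TSS in kb, with the gene body shaded. The first 200 bp hold the densest bin of every member, and Ccl3, Ccl4 and Ccl9 have a further rise past the annotated end in both conditions. Ccl6 has a smaller rise there in untreated cells, up to 10.5 RPKM from 8 tags.

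The densest 100 bp lay within 200 bp after the TSS in every member and both Ser5 libraries. For Ccl4 it reached 173 RPKM in untreated cells and 2158 after LPS, for Ccl3 209 and 1376, for Ccl9 144 and 250, and for Ccl6 14.4 and 19.2, the latter from 11 and 12 tags. Ser5 did not stop at the annotated 3′ end. Past the end of Ccl3 the 2 kb that follow held 403 tags before and 3682 after LPS (13 in input). This stretch was densest 500 to 600 bp beyond the end, at 98.5 and 1014 RPKM. Past the end of Ccl4 the 2 kb held 214 and 2846 (16 in input) and were densest 900 to 1000 bp beyond it, at 36.8 and 752. Past the end of Ccl9 the 2 kb held 269 and 610 (17 in input). They were densest at 500 to 600 bp in untreated cells (39.4) and at 600 to 700 bp after LPS (142).

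The tail was longest at Ccl9. Taken in steps of 1 kb, the lower limit of the ratio to input stayed above 1 up to 4 kb past the end of Ccl9 in both Ser5 libraries, up to 2 kb at Ccl3 in both, and up to 2 kb before and 3 kb after LPS at Ccl4. Scaled to tags outside the peaks, the extents before LPS were the same and those after were 5 kb at Ccl9, 3 kb at Ccl3 and 4 kb at Ccl4. The last kb of these longer extents rested on few tags. After LPS there were 4 against 0 in input at Ccl9, 8 against 5 at Ccl3 and 9 against 5 at Ccl4. From 2 to 4 kb past Ccl9 there were 134 tags before and 244 after LPS (14 in input), whereas the same stretch past Ccl3 held 1 and 9 (7 in input) and past Ccl4 7 and 37 (12 in input). The deposited peaks followed this pattern, covering 88.6% of the 4 kb past the end of Ccl9 before LPS and 91.7% after. Past Ccl3 they covered 34.1% and 50.6% of the same length, and past Ccl4 38.2% and 55.5%. In untreated cells 9 peaks touched the Ccl9 body and covered 85.4% of it, and after LPS 1 peak of 7360 bp ran over the whole body.

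Ccl6 had its own tail, in untreated cells. The 2 kb past its 3′ end held 56 tags before and 12 after LPS, with 9 in input, a ratio of 0.261 (0.127 to 0.493). Of 2 untreated peaks there, one at chr11:83399593-83399955 held 12 tags before LPS and 0 after, and the other at chr11:83400702-83401336 held 34 and 11, and the LPS list had 0 peaks in the 4 kb past the end. Relative to input the Ccl6 body after LPS was at 1.39 (0.886 to 2.19) when scaled to all tags, an interval that includes 1, and at 2.85 (1.81 to 4.49) when scaled to tags outside the peaks. At the start itself 22 Ser5 tags after LPS against 8 input tags gave 3.31 (1.42 to 8.61). Of the sequences of 30 bases, the length of an LPS tag, 20.6% in this 2 kb stretch occur more than once in the genome, against 13.5% of those of 45 bases. With tags kept only where 30 bases were unique, the ratio past the end was 0.266 (0.130 to 0.503), from 55 and 12 tags. Since E230016K23Rik runs across Ccl6 on the other strand and ChIP tags carry no strand of transcription, tags of these 2 genes cannot be told apart.

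**Figure D5:**
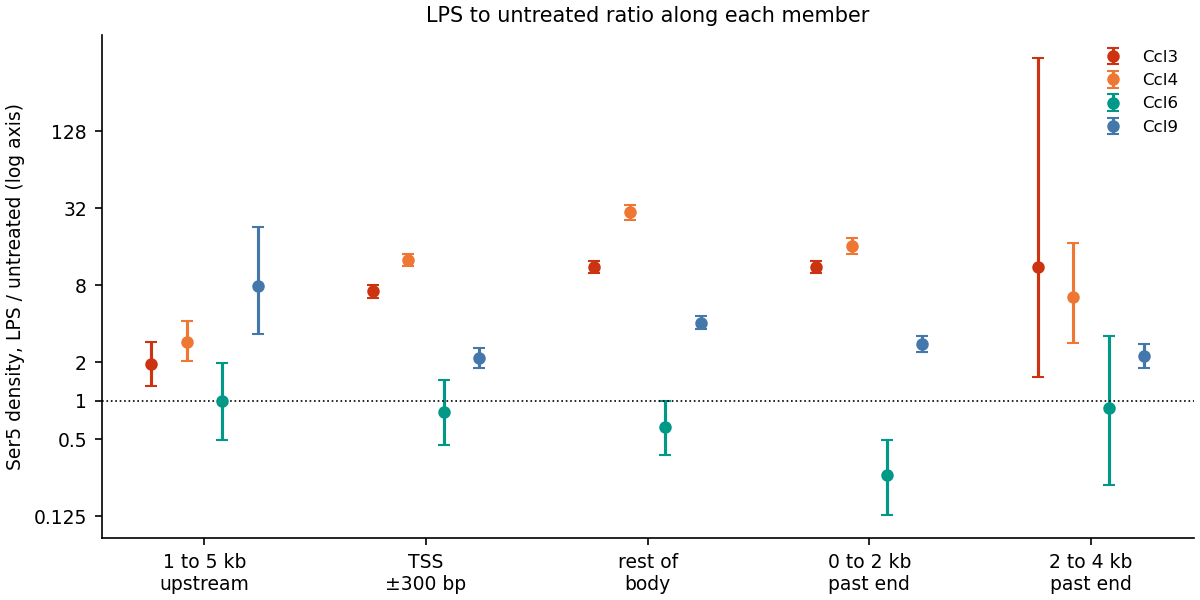
LPS to untreated ratio of Ser5 density (logarithmic axis) for 5 stretches of each member, from 1 to 5 kb upstream to 2 to 4 kb past the 3′ end; bars are exact 95% intervals for counting error and the dotted line marks no difference. For Ccl3, Ccl4 and Ccl9 the rest of the body has a higher ratio than the start, and for Ccl6 the lowest ratio, 0.261, is in the first 2 kb past the end.

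The noncoding gene E230016K23Rik had few Ser5 tags for its length. Outside Ccl6 and its surroundings it held 151 untreated tags, 144 after LPS and 290 in input, which put the Ser5 densities at 0.515 (0.420 to 0.629) and 0.599 (0.487 to 0.733) times input when scaled to all tags. Scaled to tags outside the peaks they were at 0.979 (0.799 to 1.20) and 1.22 (0.996 to 1.5), intervals that include 1. Within 1 kb of its TSS there were 3, 17 and 20 tags. Rpl9-ps1 held 0 untreated tags, 4 after LPS and 2 in input.

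The space between the members was searched for Pol_II outside genes. Between Ccl3 and Ccl4 there were 300 untreated tags and 1046 after LPS (127 in input), a ratio of 4.25 (3.73 to 4.85). More than 2 kb from either gene 97 and 216 tags were left (89 in input). Ser5 was then at 1.08 times input before LPS (0.800 to 1.45) and at 2.93 times after (2.28 to 3.79), and the LPS to untreated ratio was 2.71 (2.13 to 3.49). Scaled to tags outside the peaks it was at 2.05 times input before LPS (1.52 to 2.76) and 5.99 after (4.66 to 7.75), so that whether this stretch stood above input before LPS depended on the scaling. Between Ccl6 and Ccl3, other genes left out, there were 517 and 3910 tags (197 in input). Most of them were the tail of Ccl3, since more than 2 kb from any gene 111 and 215 were left (163 in input), a ratio of 2.36 (1.87 to 3.0). Ser5 there was at 0.674 times input before LPS (0.524 to 0.863) and at 1.59 times after (1.29 to 1.96). By the scaling outside the peaks these values were 1.28 (0.997 to 1.64) and 3.25 (2.64 to 4.01). The short space between Ccl9 and the start of E230016K23Rik held 14 and 58 tags (36 in input).

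The authors' peaks away from the members fell into 8 sites when peaks within 1000 bp were joined, of which 1 had a peak in both libraries, 1 in untreated cells alone and 6 after LPS alone. The sites were defined by these peaks, so their ratios are a description only. Distances are from the midpoint of a site. The widest lay past the end of Ccl3, at chr11:83452501-83455679, 7.26 kb beyond the 3′ end of the gene, and it had a peak in both libraries. It held 63 tags before and 180 after LPS (30 in input), a ratio of 3.48 (2.60 to 4.72), and was at 2.08 times input before LPS (1.32 to 3.32) and 7.23 times after (4.89 to 11). Per length its density after LPS, 9.06 RPKM, was far below that of Ccl3 (587).

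Between Ccl3 and Ccl4 lay 3 sites, each with a peak after LPS alone. The site at chr11:83464511-83465379, 2.09 kb upstream of the Ccl3 TSS, held 6 tags before and 33 after (5 in input). The site at chr11:83469144-83469631, 6.53 kb upstream of Ccl3 and 6.70 kb upstream of Ccl4, held 3 and 25 (6 in input). The site at chr11:83471535-83472741, 3.95 kb upstream of the Ccl4 TSS, held 25 and 69 (16 in input). In untreated cells these 3 sites were between 0.495 and 1.55 times input, with intervals that include 1, and after LPS between 5.02 and 7.96 times. Scaled to tags outside the peaks they were between 0.940 and 2.94 times input before LPS, and the interval of the site nearest to Ccl4 (1.51 to 5.89) then lay above 1. Upstream of Ccl9, at chr11:83394317-83394691, a further site held 2 tags before and 24 after LPS (5 in input). Another 3 sites, within E230016K23Rik, held between 5 and 11 tags in either Ser5 library.

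The 300 bases of the widest site with the most LPS tags, when tags were moved 75 bp towards the middle of their fragments, are shown because this was the only site outside the members with a peak in both libraries. They lie at chr11:83453650-83453949 (mm9, plus strand), 7.55 kb past the end of Ccl3 at their middle, in no annotated gene, and held 12 untreated, 39 LPS and 0 input tags counted in this way. Capitals mark a PU.1 match at bases 123 to 130 and a C/EBP match at bases 271 to 278, counted from the left. Of promoters of the same length 3.20% held the PU.1 and 10.8% the C/EBP letters. The share over windows outside genes was not counted.
Window: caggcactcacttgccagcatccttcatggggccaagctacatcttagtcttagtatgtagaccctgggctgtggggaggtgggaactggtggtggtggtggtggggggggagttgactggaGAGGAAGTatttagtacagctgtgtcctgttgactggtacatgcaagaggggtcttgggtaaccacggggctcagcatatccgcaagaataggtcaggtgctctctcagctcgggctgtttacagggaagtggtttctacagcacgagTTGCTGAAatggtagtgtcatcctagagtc

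By the density over the gene body and around the TSS in both Ser5 libraries, 4 values on the log2 scale with 0.5 tags added, Ccl3 and Ccl4 were 1.16 apart. With the members left out of the ranking, the genes most like Ccl3 were Tnf (distance 1.21), Nfkbia (1.25) and Irg1 (1.29). Those most like Ccl4 were Irg1 (0.558), Nfkbia (1.82) and Tnf (2.10). Tnf, a cytokine gene, went from 82.0 to 788 RPKM over its body, Nfkbia, the gene of an NF-kB inhibitor, from 46.2 to 285, and Irg1, the gene of the enzyme that makes itaconate, from 29.4 to 600. Nearest to Ccl9 were Marcks (0.537), Irf7 (0.548) and Serp1 (0.622), with body ratios of 2.41, 2.62 and 2.50. Nearest to Ccl6 were Fabp4 (0.180), L1cam (0.251) and Insl3 (0.328), with body ratios of 0.627, 0.712 and 0.689.

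Other CC chemokine genes on chromosome 11 were mostly higher after LPS as well. Of 7 listed, 5 were at least 2 times higher over the body (Ccl2, Ccl5, Ccl7, Ccl8 and Ccl12), 0 were lower and 2 were between (Ccl1 and Ccl11), with a median ratio of 3.05 against 0.874 over all genes. By the same rule 5.83% of all protein-coding genes that could be judged were higher and 11.3% lower. Ccl2, which attracts monocytes, went from 116 to 261 RPKM and Ccl7 from 51.7 to 215. Before LPS Ccl2 was thus above Ccl3 and Ccl7 between Ccl4 and Ccl3, whereas Ccl5, the neighbour on the left, had 0.665. Ccl8 had 4 tags before and 10 after. Of CC chemokines on other chromosomes 3 of 7 could be judged, of which Ccl17 and Ccl22 were higher. Of the CXC, CX3C and XC chemokines 12 of 16 could be judged, of which 8 were higher, 1 lower (Cxcl14) and 3 between, with a median ratio of 3.78. Among the higher, Cxcl1 went from 4.83 to 341 and Cxcl2 from 12.0 to 338, and Cxcl3 had 0 tags before and 43 after. Some genes counted as higher had few tags and an interval that included 1. They were Ccl8 (0.879 to 13.3), Ccl17 (0.971 to 5.86), Cxcl5 (0.859 to 9.84) and Cxcl15 (0.973 to 47.1).

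Ccr1, a receptor of Ccl3, Ccl6 and Ccl9, held 18 tags before and 17 after LPS, with 47 in input. Among related receptor genes, Ccrl2 held 22 tags before and 463 after LPS (30 in input), a ratio of 25.6 (16.7 to 41.3), and Ccr2 held 43 and 8 (95 in input), a ratio of 0.227 (0.0921 to 0.488). Of these 3 genes only Ccrl2 had a Ser5 peak at its TSS after LPS.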

How the data were processed

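The authors trimmed the 76-base reads, aligned them to mm9 with Bowtie, with no more than 2 mismatches and a single match required, and ran MACS on either Ser5 library with the input as control at p of 1e-05. Versions are not given in the sources used here. The methods state the trimmed lengths of the Ser5 libraries the other way round from the files (45 bases untreated, 30 after LPS). Libraries were assigned by their labels, and exchanged files would invert every LPS to untreated ratio. Ccl5, a gene known to be induced by LPS, held 24 tags in the library labelled untreated and 7803 in that labelled LPS. The deposited tags come with coordinates and strand, repeats included, and the score in the deposited peak lists is minus 10 times log10 p. From these, 5′ ends were counted over GENCODE M1 genes, on an assembly whose sequence of chromosome 11 has 121843856 bases, and scaled to all tags on chromosomes 1 to 19 and X, which assumes an equal share of background in each library. The shares of tags outside the peaks (50.2% and 46.7% for Ser5, 95.5% for input) show that Ser5 and input do not meet this, so ratios to input were also scaled to those tags. Counts have exact Poisson intervals and ratios exact intervals conditional on the sum. On simulated Poisson counts the ratio intervals held the true value in 93.9% to 96.6% of 1000 cases. Such draws follow the model that the intervals assume, so they check the calculation only. They cannot show how well the intervals hold for real tags, of which many are identical. The shorter LPS tags are lost more often in repeats, and over the gene bodies between 0% and 6.94% of sequences of 30 bases were repeated. Promoters came from RefSeq (GRCm38.p6). Python 3.11.15, numpy 2.4.6 and scipy 1.17.1 were used. Members, lists, windows and rules were chosen with earlier results of these data known. Genes named beside the members are those lying between or next to them, the 3 most alike of each, and those on which the count of a list turns, with others chosen after their values were seen. Counts over the list of chemokine receptors are not reported here.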

Additional observations from a re-analysis of the deposited data

How the results depend on the processing

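Under the alternatives, 154 values moved by less than their counting interval (counts by less than 1.5 times) and 45 moved by more. For 0 ratios did the interval pass wholly to the other side of 1. Scaled to tags outside the peaks, however, 2 ratios to input rose from below to above 1, with intervals that include 1. These were E230016K23Rik outside Ccl6 after LPS (0.599 to 1.22) and, in untreated cells, the stretch between Ccl6 and Ccl3 more than 2 kb from genes (0.674 to 1.28). The alternatives with other genes left in, 5′ ends moved by 1 bp and positions unique at 30 bases, and the scaling outside the peaks for the noncoding gene, the stretches 2 kb from genes, the sites and the Ccl6 body after LPS, were chosen after seeing the data. No paired analysis was possible because each condition has 1 library. With identical tags counted once, the LPS to untreated ratio was 5.04 over the body and 4.39 at the TSS of Ccl3, 8.99 and 5.29 at Ccl4, 4.83 between Ccl6 and Ccl3 and 3.01 between Ccl3 and Ccl4. Without the first 300 bp the body ratio was 11.1 at Ccl3, 29.7 at Ccl4 and 4.07 at Ccl9, and untreated Ser5 was 13.4, 10.4 and 6.29 times input, with Ccl6 at 1.54 (0.984 to 2.45). More than 2 kb from genes the LPS to untreated ratio was 2.36 between Ccl6 and Ccl3 and 2.71 between Ccl3 and Ccl4, and the space between Ccl9 and Ccl6 is too short to give a value. With other genes left in, it was 1.33 between Ccl9 and Ccl6 and 7.43 between Ccl6 and Ccl3, and untreated Ser5 was 0.941 and 1.43 times input. Scaled to tags outside the peaks, untreated Ser5 over the body and at the TSS was 38.7 and 34.7 times input at Ccl3, 28.8 and 36 at Ccl4, 4.05 and 3.52 at Ccl6 and 16.8 and 17.1 at Ccl9, and 0.731, 4.94 and 4.44 times input in the spaces from left to right. Within 500 bp of the TSS Ccl6 was at 4.07. Counted by midpoint, untreated peaks numbered 0 in the spaces between Ccl9 and Ccl6 and between Ccl3 and Ccl4, and LPS peaks 1 in the former. At a score of at least 100, LPS peaks numbered 1 and 4 there. The ratio of LPS to untreated over the Ccl6 body was between 0.496 and 0.703, and its interval reached past 1 when tags were moved by 75 bp (0.477 to 1.01) or scaled outside the peaks (0.478 to 1.02).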
